A study of Mus musculus with 108 samples.

Results

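The loci of 10 genes of the SoxF transcription factor family and the Notch pathway were examined in a reporter screen of cloned open chromatin: Sox7, Sox17 and Sox18, the receptors Notch1 and Notch4, the ligands Dll4 and Jag1, and the target genes Hes1, Hey1 and Hey2. A locus was the gene body in the mm10 annotation of GENCODE and 100 kb to each side, and every fragment that overlapped it was taken, whichever gene it lay closest to. The 10 loci held 3780 of the 1177237 distinct fragments listed for sorted cells, and 88557 of the 34450164 distinct fragments listed for the plasmids. Sorted fragments that overlapped each other were merged into sites, with the distal and the promoter lists of the authors kept apart, and 184 of 76760 sites lay in the loci (131 distal and 53 promoter sites).

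The fragments were cut from open chromatin by Tn5 transposase, cloned into an entry vector (pDONR) and then into a reporter vector (pSKB) in front of the HSP68 minimal promoter and the Venus-YFP gene, and placed by recombination into the Hprt gene of mouse embryonic stem cells (HM-1). All groups share this cell line, cassette and integration site, and differ by stage and YFP level. The stages were ES cells (ES), FLK1+ hemangioblast cells (HB), the first hemogenic endothelium stage (HE1, KIT+ TIE2+ CD41-), the second (HE2, KIT+ TIE2+ CD41+) and hematopoietic progenitors (HP, KIT+ TIE2- CD41+). YFP fluorescence set the gates of each stage (Negative, Low, Medium, High), except that replicate 5 had a joint Medium/High gate, which gave 95 sorted libraries. Low, Medium, High and Medium/High cells are called positive here, and the lists of 1 stage and replicate combined are called a set, so that each stage had 5 positive and 5 Negative sets.

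The sorted lists name each fragment once, without reads, and a library held 18652 to 131091 fragments in replicate 1, 15627 to 113943 in replicate 2 and 504 to 20729 in replicates 3 to 5. A level is the number of distinct fragments per 10000 listed in the same set or stage. In the HB positive set of replicate 5 a single fragment was worth 5.41 per 10000. Of the smaller list, 78.5% was common to HE1 Negative of replicate 1 and HE1 Medium of replicate 2, including 332 of the 461 fragments that the Negative list had in the 10 loci, and 83.0% to HE1 Negative of replicate 3 and HE1 Low of replicate 4, including 29 of the 36 of that Negative list. The lists hold reporter inserts and no transcripts, so the stages could not be checked against their marker genes here. Nothing in the sources used here says that replicates came from separate cultures, so p-values measure the spread between these sets. All intervals cover counting error only.

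SOX7, SOX17 and SOX18 are closely related DNA-binding proteins of endothelium that recognise short motifs around the letters ACAAT. A Notch receptor is cut after it meets a Delta-like or Jagged ligand on a neighbouring cell, and the freed part joins the DNA-binding protein RBPJ to switch on genes such as the Hes and Hey repressors. Arterial endothelium of the embryo uses both SoxF factors and Notch, and hemogenic endothelium arises in close relation to it.

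The middle 300 bases of 4 sites are printed because the results turn on them. Sox7 distal site 19, Sox17 distal site 7 and Dll4 distal site 2 had positive fragments in the largest number of sets among the distal sites of their loci. Notch1 distal site 25 was chosen after its values were seen, as a site with 102 fragments and none in ES. The sequences are from the RefSeq GRCm38 (mm10) genome, plus strand, 5′ to 3′, and capitals mark matches on either strand to 8 motifs. These were ACAAT for SOX factors, TGGGAA for the Notch partner RBPJ, CCGGAA for ETS factors with AGGAAG as a separate ETS motif, GATAA for GATA factors, TGANTCA for the AP-1 family, TGTGGT for RUNX factors and GGAATG for TEAD factors.
Sox7 distal site 19 (chr14:64046362-64046661): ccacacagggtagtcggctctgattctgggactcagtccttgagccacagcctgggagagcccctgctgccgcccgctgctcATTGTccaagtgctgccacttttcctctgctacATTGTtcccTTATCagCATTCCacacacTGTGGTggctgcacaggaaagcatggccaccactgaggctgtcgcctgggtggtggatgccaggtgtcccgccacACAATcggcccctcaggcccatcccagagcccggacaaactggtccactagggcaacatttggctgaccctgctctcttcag
Sox17 distal site 7 (chr1:4571596-4571895): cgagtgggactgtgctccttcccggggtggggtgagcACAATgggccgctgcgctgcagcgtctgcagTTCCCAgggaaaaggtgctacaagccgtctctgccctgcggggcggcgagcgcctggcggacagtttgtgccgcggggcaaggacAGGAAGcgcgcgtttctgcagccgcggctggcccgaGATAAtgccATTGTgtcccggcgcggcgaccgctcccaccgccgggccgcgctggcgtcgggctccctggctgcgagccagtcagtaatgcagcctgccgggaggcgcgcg
Notch1 distal site 25 (chr2:26571912-26572211): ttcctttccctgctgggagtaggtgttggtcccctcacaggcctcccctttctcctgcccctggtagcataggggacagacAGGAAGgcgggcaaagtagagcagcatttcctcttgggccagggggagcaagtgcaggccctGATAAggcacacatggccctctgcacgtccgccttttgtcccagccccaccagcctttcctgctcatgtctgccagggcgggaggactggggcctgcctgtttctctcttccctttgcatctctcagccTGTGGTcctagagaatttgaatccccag
Dll4 distal site 2 (chr2:119300159-119300458): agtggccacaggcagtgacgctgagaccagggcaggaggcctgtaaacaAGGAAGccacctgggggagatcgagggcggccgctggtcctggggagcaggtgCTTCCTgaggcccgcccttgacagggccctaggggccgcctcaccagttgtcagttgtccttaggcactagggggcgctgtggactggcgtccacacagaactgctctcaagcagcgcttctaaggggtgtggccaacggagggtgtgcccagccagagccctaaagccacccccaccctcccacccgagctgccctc

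A match is a description of letters and not a bound site. Sox7 distal site 19 held 3 SOX matches and Sox17 distal site 7 held 2, beside 1 RBPJ match. Dll4 distal site 2 held 2 AGGAAG matches and no SOX match. Over the middle 300 bases at most of all 131 distal sites of the loci, ACAAT was present in 33.6% (36.3% of all 58911 distal sites with sequence), AGGAAG in 55.7% (48.8%), TGGGAA in 38.2% (29.3%), TGTGGT in 27.5% (25.5%), GATAA in 22.9% (34.5%), TGANTCA in 18.3% (16.1%), GGAATG in 16.03% (19.6%) and CCGGAA in 5.34% (5.55%).

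The 10 loci differed in how many fragments they held and where these lay, as the plot of sites along each locus shows. Notch1 held the most sorted fragments (1086, above 98.2% of 19821 gene windows of the same kind) and Jag1 the fewest (99), while the median window held 236. Most fragments were distal at Sox17 (82.8%), Sox7 (72.7%) and Hey1 (63.7%) and few were at Hey2 (13.4%), against a median window of 26.6%. Hey2 held 63.5 sorted fragments per 1000 plasmid fragments (median window 38.3) and Jag1 29.1. Of the sorted fragments in the loci 79.9% were identical to a plasmid fragment (80.5% of all), 25.95% were in both positive and Negative lists (24.6% of all) and 13 were identical to a fragment of the HM-1 control lists. Over all fragments of a library, the match to the plasmids was 13.6% in HE1 Negative of replicate 3 and 25.4% in HE1 Low of replicate 4, which share fragments. It was 27.8% in HP Negative of replicate 3. The methods describe keeping only fragments of the plasmid libraries, and the cause of the unmatched fragments was not tested.

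**Figure D1:**
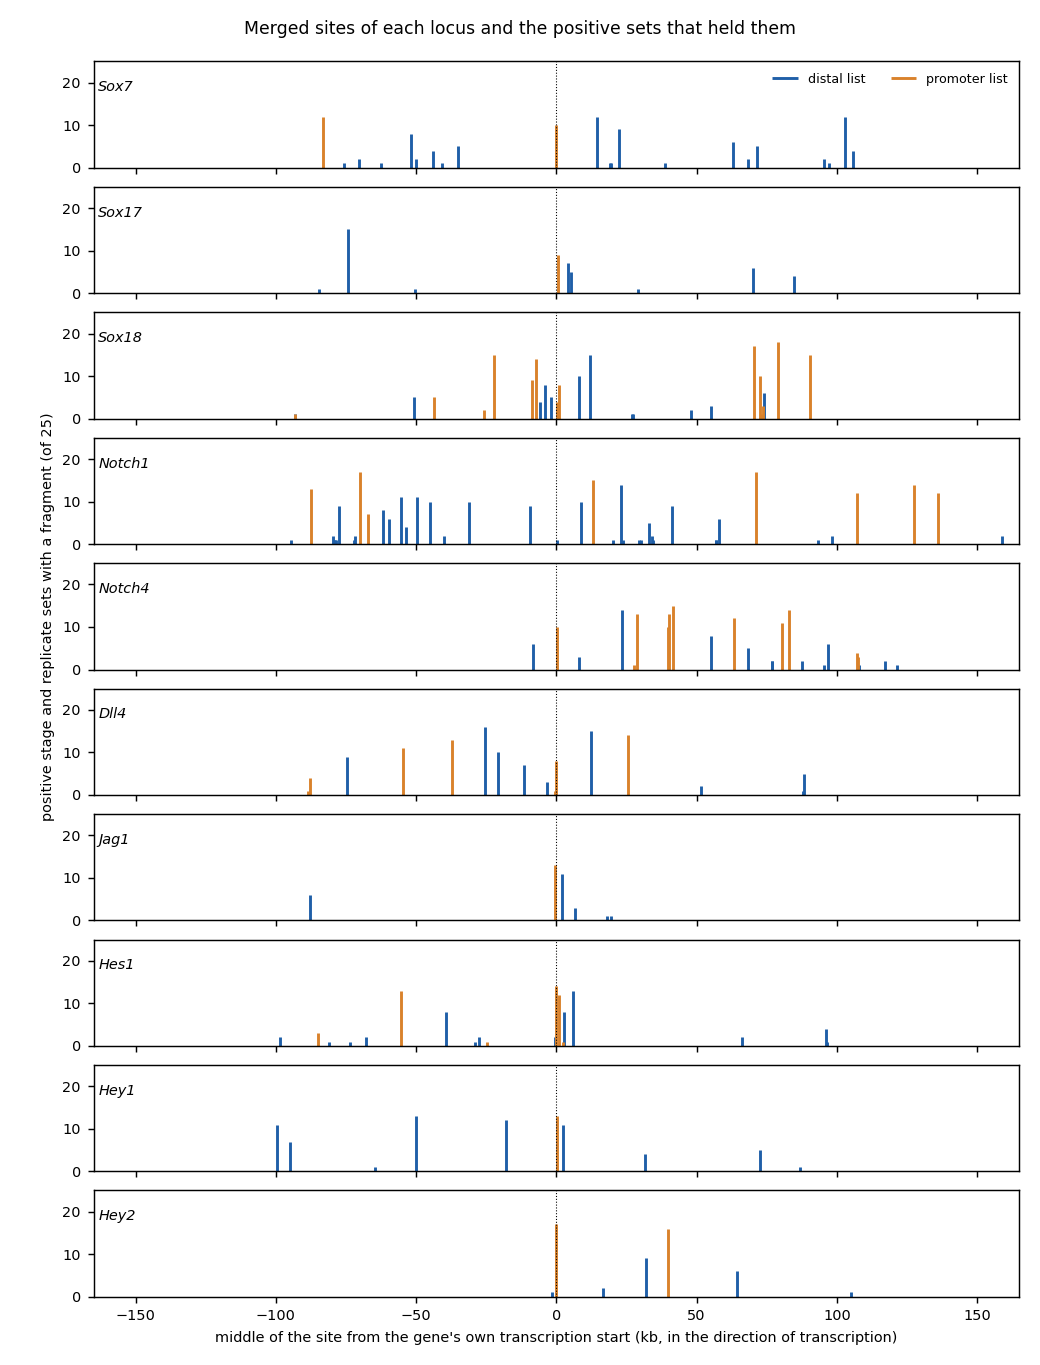
Each line is a merged site of a locus, placed by the distance of its middle from the gene's own transcription start in kb along the direction of transcription, and its height is the number of the 25 positive stage and replicate sets with a fragment (blue: distal list, orange: promoter list). Sox18, Notch1 and Notch4 hold many promoter sites of neighbouring genes, while Sox17, Jag1 and Hey1 hold 1 promoter site each, over or beside their own start.

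Of the 184 sites, 181 held positive fragments and 3 held Negative fragments only. Positive fragments were listed at all 5 stages for 49 sites and at 1 stage for 67, and 44 sites rested on 1 fragment. Each of the 184 sites was in at least 1 of the 10 plasmid lists and 124 were in all of them. The pattern over stages is described below for the 85 sites with at least 10 fragments.

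Sox7, a factor of early blood-forming mesoderm and of endothelium (gene at chr14:63943673-63950732, plus strand), had the lowest ES level of the 10 loci. Of the 282 fragments in its window, 96 lay at sites nearest to Sox7. In the positive sets of ES, replicates 1 to 5 in order, the level was 0.50, 0.58, 0, 0 and 4.57 per 10000, from 5, 6, 0, 0 and 1 fragments. In HB it was 2.13, 2.79, 2.14, 5.104 and 0, in HE1 2.52, 2.79, 2.59, 0.75 and 0, in HE2 3.05, 2.39, 4.198, 0 and 0, and in HP 2.27, 3.15, 0, 3.57 and 2.23. In replicates 1 to 4 ES was lowest or shared the lowest place, while the single ES fragment of replicate 5 gave a value above most HB sets, so the groups overlap. Pooled over replicates, the level was 0.45 in ES (95% Wilson interval 0.24 to 0.85) and 2.43 in HB (1.90 to 3.11), and it lay between 2.51 and 2.77 from HE1 to HP. The Negative lists had the same order between those stages, 0.57 in ES and 2.07 in HB.

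The ES fragments of the Sox7 locus lay at distal site 4 and promoter site 1, and the latter is the promoter of the neighbouring gene Pinx1. Within 50 kb of Sox7 the ES lists held 0 of 200199 positive fragments, which allows up to 0.150 per 10000, and 0 of 87322 Negative fragments, whereas HB held 37 positive and 10 Negative fragments there. Sox7's own promoter, promoter site 2 (chr14:63943144-63944104, 44 fragments), was listed in 10 positive and 7 Negative sets from HB to HP. Distal site 19, 103 kb downstream and 16.2 kb from the nearest start, that of Rp1l1 (chr14:64046117-64046905, intergenic), was listed in 12 positive sets of all 5 replicates, in 7 Low, 9 Medium, 8 High and 1 Medium/High libraries. Neither of these sites had an ES fragment in either kind of list.

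The comparison of positive HB with ES sets asked whether a locus gains reporter fragments on leaving the ES state. In the limma fit on log2 of fragments per 10000 plus 1, Sox7 differed by 0.82 (HB minus ES, SE 0.60, adjusted p = 1.00), and none of the 10 loci and 0 of 18399 windows (0%) passed the threshold of 0.05. Weights for the number of fragments in each set (voom) give the deep replicates more say. The voom fit also does not use the 1 added per 10000, so its differences are on another scale. In it Sox7 differed by 2.23 (SE 0.41, limma adjusted p = 0.00231). Sox7 was the only 1 of the 10 loci called, where 0.223% of windows were called higher and 1.69% lower. The Sox7 call was lost with the replicate number as a block (1.95, limma adjusted p = 0.0621), without replicate 2 (limma adjusted p = 0.0806), and with distal or promoter fragments alone (limma adjusted p = 0.0612 and 0.425). It was kept without replicate 1, 3, 4 or 5 (limma adjusted p = 0.0289, 0.00719, 0.00210 and 0.00118). The same weighted fit on the Negative sets gave 1.64 (limma adjusted p = 0.632). The numbers pair the sets in this comparison by the correlations of their deviations (0.14 to 0.29).

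Sox17, a factor of endoderm and of arterial and hemogenic endothelium (chr1:4490931-4497354, minus strand), held 186 fragments, of which 154 were distal. Its positive level from ES to HP was 0.90, 1.08, 1.75, 1.65 and 1.20 per 10000, all below the median window, and the intervals of neighbouring stages overlap. In HE1 the sets held 2.05, 1.37, 5.17, 3.02 and 0 per 10000. Distal site 7 (chr1:4571340-4572151, 74.4 kb upstream, intergenic, Sox17 the nearest gene) was listed at every stage in 15 positive and 11 Negative sets, with 14, 9, 31, 20 and 15 positive fragments from ES to HP. The promoter, site 1 (chr1:4496210-4497214), held no ES fragment and 6, 15, 10 and 4 positive fragments from HB to HP. Distal site 4 in a coding exon of Sox17 (27 fragments) was listed in HE2 and HP only. Distal site 5 beside it in the gene (34 fragments) had the opposite pattern, with 4, 11 and 18 positive fragments in ES, HB and HE1 and none in HE2 or HP.

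Sox18, a factor of vascular and lymphatic endothelium (chr2:181669836-181671640, minus strand), shares its window with 10 other genes, and 59 of its fragments lay at sites with Sox18 as the nearest gene. From ES to HP its positive level was 3.55, 4.63, 5.57, 4.60 and 4.35 per 10000. Distal site 6, 11.9 kb downstream of the start (chr2:181659144-181660288, intergenic), held the most distal fragments (90) and was listed at all 5 stages, with 8 positive fragments in ES and 20 to 33 later. Distal site 7 next to it (43 fragments) had none in ES. The promoter of Sox18 itself, site 8 (13 fragments), was listed in HE1 and HE2 only, in 4 positive and 2 Negative sets. Distal site 4 held 11 positive fragments in HE1 of replicate 4 and 6 Negative fragments in HE1 of replicate 3, the lists that share fragments, and no other positive fragment.

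**Figure D2:**
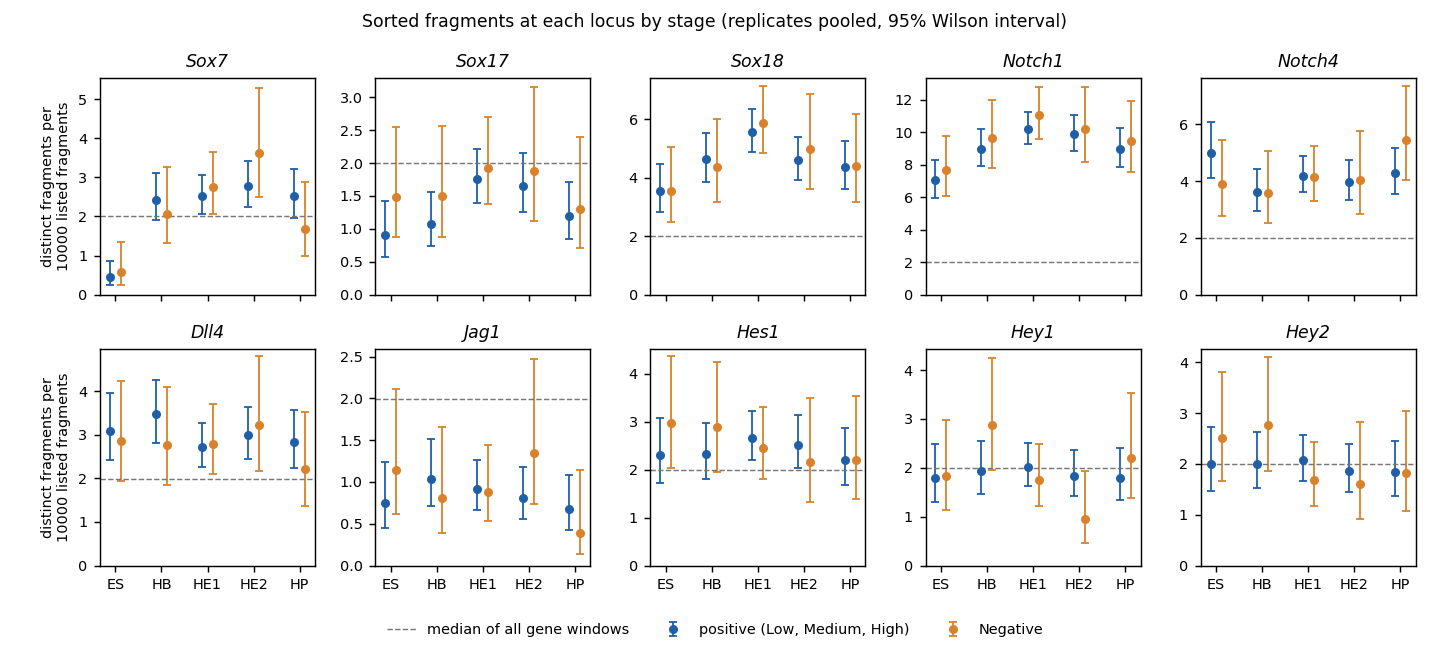
Distinct fragments per 10000 listed fragments at each locus and stage (5 replicates pooled), for positive lists (blue) and Negative lists (orange), with 95% Wilson intervals of counting error and the median of all gene windows as a dashed line; each panel has its own axis from 0. Sox7 has the lowest ES value against its later stages, 0.45 against 2.43 or more in positive lists, and 0.57 against 1.69 or more in Negative lists; the Negative points of other loci do not all follow the positive ones.

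Notch1, the receptor needed for arterial fate and blood stem cell emergence (chr2:26457903-26516663, minus strand), had the highest level of the 10 loci at every stage. Its window holds 9 other genes, and 242 of its fragments lay at sites nearest to Notch1. In the positive sets of ES the level of the window was 7.30, 7.16, 6.85, 13.6 and 4.57 per 10000, in HB 9.03, 9.52, 8.02, 3.40 and 5.41, and in HE1 9.53, 11.3, 15.5, 5.28 and 18.8. Pooled over replicates the values from ES to HP were 7.04, 8.98, 10.2, 9.89 and 8.98. Replicates 1 and 2 each had their lowest value in ES, while replicate 4 had its highest there. The difference of HB from ES did not pass the test.

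The window of Notch1 holds 35 distal sites, and 17 of these have Notch1 as the nearest gene. Promoter site 5 overlaps an internal Notch1 start (chr2:26503235-26504196) and was listed at all stages in 15 positive sets. Of the 20 sites with at least 10 fragments in the window, 12 had ES fragments and 8 had none. Upstream of the gene, toward Egfl7, a gene for a secreted endothelial protein, lay a run of sites without any ES fragment: distal sites 23, 25, 26 and 27 and promoter site 6, the promoter of Egfl7, with 30, 102, 62, 29 and 37 fragments.

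Distal site 25 in this run (chr2:26571575-26572548, 55.4 kb upstream of Notch1 and 7466 bases from the Egfl7 start) held more fragments than any other distal site of the loci. Its positive fragments numbered 15, 9, 3, 0 and 1 in the HB sets, 18, 20, 1, 0 and 0 in HE1, 20, 15, 0, 0 and 0 in HE2 and 20, 8, 0, 0 and 0 in HP. The Negative sets held 9 fragments in HB and none in ES. The site was chosen for its lack of ES fragments and passed the filter of 4 sets through HB alone. A test of HB against ES therefore has no meaning for it. In that comparison limma called 0 of 61 member sites and 1 of 17944 sites (0.00557%). With weights this site was the 1 member site called, where 0.0724% of sites were called higher and 0.295% lower, and nothing is read from that call. Distal site 26 beside it was listed in HE1 and HE2 only, in positive and Negative lists alike.

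Notch4, a receptor found mainly on endothelium (chr17:34564268-34588503, plus strand), had its highest positive level in ES when replicates were pooled (5.00 per 10000, interval 4.11 to 6.07). The pooled levels of the later stages in order were 3.62, 4.19, 3.98 and 4.27. The Negative lists did not have this order, with 3.89 in ES and 3.57, 4.14, 4.04 and 5.45 later. Single replicates differed as well. In replicates 1 to 5 in order, the positive ES sets held 4.70, 6.29, 2.74, 1.94 and 4.57 per 10000. The positive HE1 sets held 4.09, 3.70, 5.17, 7.54 and 7.53, so ES was above HE1 in replicates 1 and 2 only. All Notch4 sites with at least 10 fragments were listed in ES. Its most widely listed distal site, site 3 (chr17:34586897-34588081, 89 fragments), overlaps a coding exon and an internal Notch4 start and was listed in 14 positive and 11 Negative sets. The Notch4 window holds 13 other genes, and 127 of its fragments lay at sites nearest to Notch4. Its promoter, site 1, held 30 fragments over all 5 stages.

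Of the ligands, Dll4, an early mark of arterial endothelium (chr2:119325784-119335962, plus strand), held 334 fragments and Jag1 (chr2:137081456-137116644, minus strand) held 99. In the Dll4 window 83 fragments lay at sites nearest to Dll4. Dll4 had positive levels of 3.10, 3.47, 2.71, 2.99 and 2.83 from ES to HP, with overlapping intervals. Its distal site 2 (chr2:119299858-119300759, 25.5 kb upstream, intergenic, Vps18 the nearest start) was listed in 16 positive sets of all 5 replicates, in 13 Low, 13 Medium and 12 High libraries, and in 11 Negative sets. The promoter of Dll4, site 6 (chr2:119325400-119326160, 31 fragments), had none in ES. Jag1 stayed between 0.68 and 1.04 per 10000 at every stage, and its intronic distal site 4 (chr2:137114189-137115191, 30 fragments) was listed from ES to HE2 but not in HP, where its promoter site 1 held 17 positive fragments.

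The target genes had nearly level values in positive lists. Hes1 (chr16:30064384-30067796, plus strand), a repressor used by many tissues, had positive levels of 2.298, 2.31, 2.66, 2.52 and 2.20 from ES to HP. Hey1 (chr3:8663359-8667256, minus strand) had 1.80, 1.93, 2.02, 1.84 and 1.80, and Hey2 (chr10:30832359-30842801, minus strand), which acts with Hey1 in arteries and heart, had 2.00, 2.00, 2.07, 1.87 and 1.84. Each of these 3 loci stayed near the median window at each stage in positive lists. The Negative lists were less level at Hey1, with 1.83, 2.88, 1.75, 0.94 and 2.21 from 16, 25, 30, 7 and 17 fragments. Their own promoters were listed at all 5 stages: Hey2 promoter site 2 with 122 fragments in 17 positive sets, Hey1 promoter site 1 with 81 fragments in 13 and Hes1 promoter site 4 with 68 fragments in 14. Hes1 promoter site 2, with 72 fragments, is in the promoter list although the nearest start in this annotation, that of Hes1, lies 55.0 kb away. The named distal sites were Hes1 distal site 10 (chr16:30069824-30070866, 5.96 kb downstream, 25 fragments), Hey1 distal site 6 (chr3:8716481-8718031, 50.0 kb upstream, 32 fragments) and Hey2 distal site 3 (chr10:30810813-30811170, 31.8 kb downstream, 11 fragments). Hes1 distal site 9, over a coding exon of the gene, had none in ES or HB and 31 fragments later.

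Sites without a fragment were most frequent in ES. Of the 85 sites with at least 10 fragments, 30 had none in any ES list (35.3%), and for the later stages in order this number was 15, 3, 4 and 12. Over all 23792 sites of the series with at least 10 fragments, the share with none from ES to HP was 21.7%, 15.3%, 2.88%, 2.98% and 9.10%. The ES positive lists were also the smallest (200199 fragments). At that number of fragments at every stage, 33.0, 55.5, 66.1, 62.8 and 54.8 of the 131 distal sites would be listed from ES to HP, which is 25.2%, 42.3%, 50.5%, 47.9% and 41.9% of them, against 28.9%, 32.5%, 40.2%, 40.8% and 37.8% of all distal sites. For Sox7 the same numbers are 1.00 of 20 distal sites in ES and 11.2 in HE1. Sox7 had 7 of the 30 sites, Notch1 8, Sox18 6 and Sox17 3, Dll4 and Hes1 had 2 each, Hey1 and Hey2 1 each, and Notch4 and Jag1 had none. Of the 30, 25 were distal, and the other 5 were the promoters of Sox7, Sox17, Sox18, Dll4 and Egfl7.

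**Figure D3:**
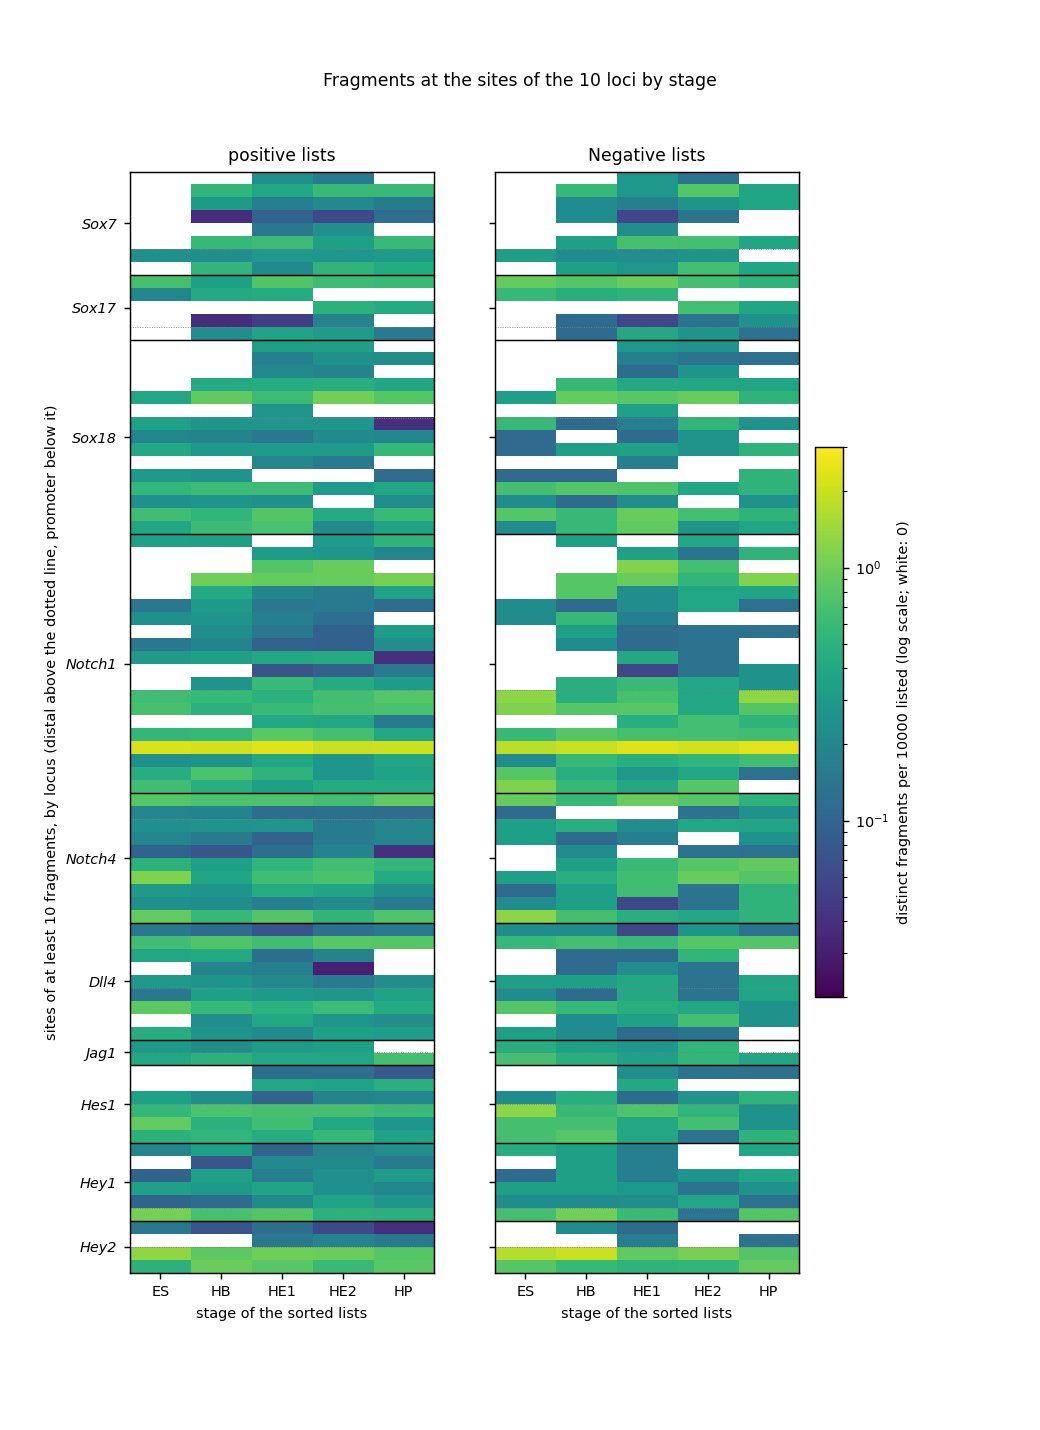
Heat map of the 85 sites with at least 10 fragments (rows by locus and position, distal above the dotted line and promoter below) over the 5 stages, in distinct fragments per 10000 listed on a log colour scale, white for 0, for positive lists (left) and Negative lists (right). White cells of the positive map are white in the Negative map in 64 of 65 cases (95.9% of such cases over the whole series), and ES holds the most of them (30).

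A site absent from the positive lists of a stage was almost always absent from its Negative lists too. Among the 85 sites and 5 stages, 65 cases had no positive fragment, and 64 of these (98.5%) had no Negative fragment either. Where positive fragments were listed, Negative ones were missing in 32 of 360 cases (8.89%). The whole series had 95.9% and 14.0%. Joint absence from both kinds of list was thus frequent over the whole series and is not particular to these loci. The Negative lists of a stage were also smaller, with 74325 to 171531 fragments against 200199 to 405417 in positive lists. The sources used here do not say whether the lists were filtered by open chromatin of each stage, and its part was not tested.

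In the plasmid lists a level is distinct fragments per 1000000 listed. The 30 sites without ES fragments had a median of 2.12 per 1000000 in the ES pDONR list and 13.1 in the HE1 list, and 2.36 and 14.1 in pSKB. The other 55 sites had 14.0 and 20.8 in pDONR, and 14.8 and 20.8 in pSKB. All but Sox18 distal site 4 among the 30 were lower in ES than in HE1 in both vectors, as were 39 of the other 55, and 25 of the 30 were present in both ES plasmid lists. These shares were not counted over all sites of the series, so no trait particular to these loci is read from them. Notch1 distal site 25 had 2.47 per 1000000 in ES and 48.2 in HE1 in pDONR. Sox17 distal site 4 differed from these, with 15.5, 18.6, 23.0, 14.4 and 8.62 per 1000000 from ES to HP in pDONR, although sorted fragments were listed in HE2 and HP only.

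**Figure D4:**
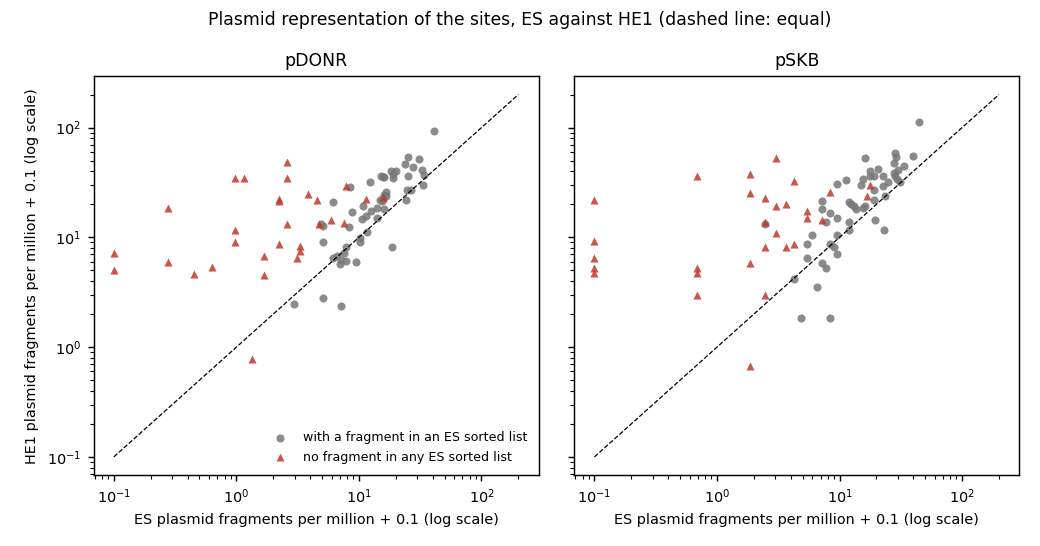
Plasmid fragments per 1000000 (plus 0.1, log axes) of the 85 sites in the ES and HE1 lists of pDONR (left) and pSKB (right); red triangles are the 30 sites without a fragment in any ES sorted list, grey points the other 55, and the dashed line marks equal values. Of the 30 triangles 29 lie above the line in both vectors, as do 39 of the 55 grey points.

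Over whole loci, Sox7 stood at 3.06 times its ES level in HE1 in pDONR and 3.00 times in pSKB, at 2.72 and 2.39 in HE2 and at 2.11 and 2.00 in HP. Notch1 stood at 1.93 and 1.95 in HE1 and Hey1 at 2.18 and 2.29 in HB. Loci at least 1.5 times higher than ES in both vectors were Hey1 in HB, Sox7, Sox17, Notch1 and Hey1 in HE1, Sox7, Notch1 and Hey1 in HE2, and Sox7 and Hey1 in HP, so 1, 4, 3 and 2 of 10, against 0.775%, 2.46%, 2.51% and 3.92% of all windows with at least 20 fragments in each list. None was 1.5 times lower in both, against 2.13%, 4.34%, 4.49% and 5.52%. Each vector and stage had 1 list, so these ratios have no replicate check beyond the other vector. For Hey1, the plasmid level of distal site 6 was 10.1 per 1000000 in ES, 47.1 in HB and 9.06 in HE1 in pDONR, while the sorted positive lists held 2, 9 and 7 fragments of it.

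**Figure D5:**
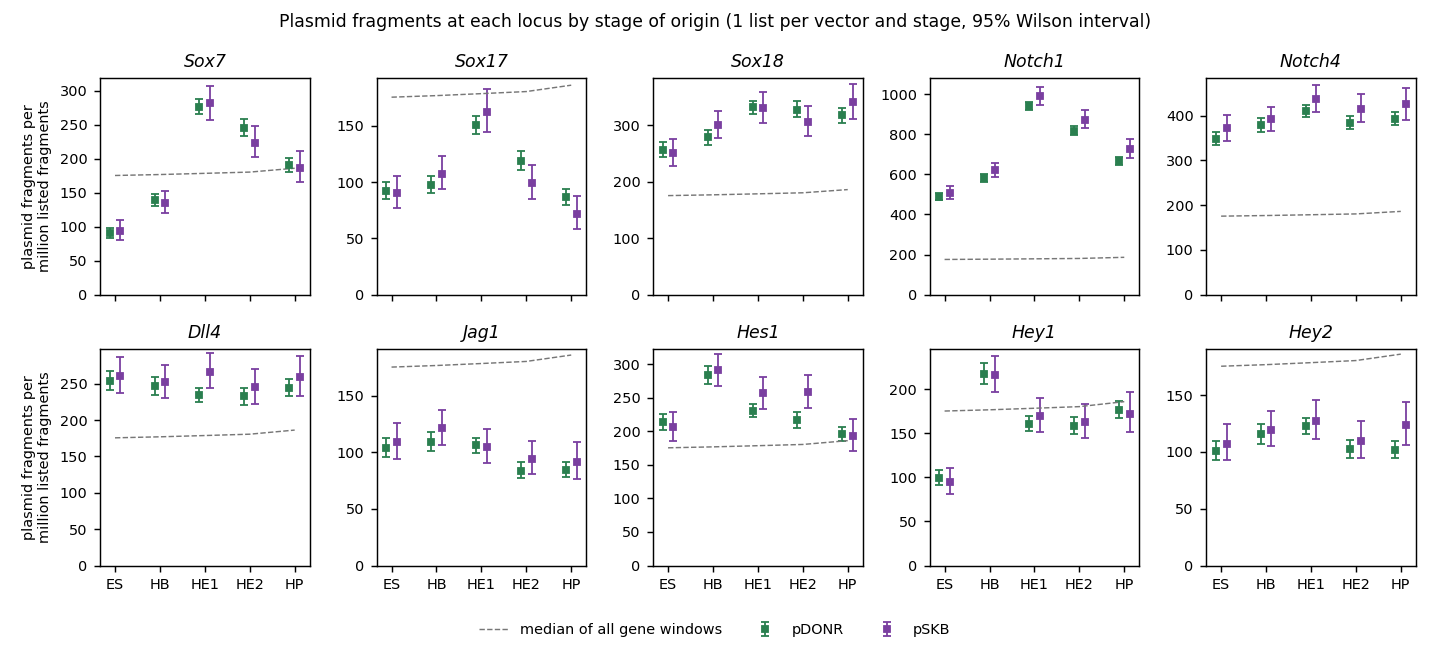
Distinct plasmid fragments per 1000000 listed at each locus by the stage the library was made from, for pDONR (green) and pSKB (purple), 1 list each with 95% Wilson intervals, and the median of all gene windows as a dashed line; each panel has its own axis from 0. Sox7, Sox17, Notch1, Notch4 and Hey2 are highest in HE1, and Jag1, Hes1 and Hey1 in HB, in both vectors.

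Sorted fragments matched plasmid lists of other stages as well as their own. Of the 538 positive ES fragments in the 10 loci, 12.5% were identical to a fragment of the ES plasmid lists, 38.5% to one of HE1 and 35.9% to one of HE2. The HE1 lists matched 34.8% to 50.9% of the positive fragments of each stage and the HE2 lists 25.7% to 38.7%. The lists of the same stage matched 12.5%, 8.81%, 44.1%, 26.4% and 8.72% from ES to HP, against 14.3%, 10.1%, 42.1%, 27.3% and 10.3% over the whole series. What part the plasmid level of a stage has in the sites without ES fragments was not tested.

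The comparison of gates asked whether a locus is found more in cells with reporter activity. Pooled over stages, Sox7 had 2.40, 2.53, 1.84, 2.17 and 1.80 per 10000 in the positive sets of replicates 1 to 5 and 2.24, 2.53, 1.27, 0.85 and 0 in the Negative sets (mean 2.14 ± 0.33 and 1.38 ± 1.03, SD, n = 5). In its high gates (Medium, High and Medium/High) it had 2.40, 2.62, 2.32, 2.81 and 3.12, and in Low cells 2.31, 2.00, 0, 1.27 and 0. The high value was above the Low value in 5 of 5 replicates, and the lowest high value (2.32) lay just above the highest Low value (2.31), while 0% of 18949 windows were called (log2 difference 0.96, SE 0.39, limma adjusted p = 0.999). The groups do not overlap, by that small gap, and a count of 0 in Low of replicate 5 allows up to 5.17, above its high value. The share of all windows with such an order in 5 of 5 replicates was not counted, so nothing is read from it. The log2 difference of Sox7 was 0.08 in promoter fragments alone and 0.62 with voom weights, which is on another scale. Hes1 was below its Low value in the high gates of all 5 replicates (mean 1.39 ± 1.29 and 2.72 ± 1.65, SD, n = 5, limma adjusted p = 0.999), with 0 fragments in the high gates of replicates 4 and 5. The 0 of replicate 4 allows up to 2.81 per 10000, above its Low value of 0.637. The 0 of replicate 5 allows up to 4.67, against 5.17 in Low. For Hes1 too the share of all windows with such an order was not counted. The differences of positive from Negative over the 10 loci ran from -0.37 on the log2 scale at Sox17 (SE 0.34) to 0.53 at Sox7 (SE 0.35), which was 0.002 in promoter fragments alone.

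Over the 16 comparisons (positive with Negative and high with Low, pooled and at each stage, and positive sets of adjacent stages), all 10 loci passed the filter of a fragment in at least 4 sets, and limma called 0 of them, as it called none of the 16353 to 19039 windows tested (0%). At an unadjusted p under 0.05 it listed 4 of 160 tests of the loci, where 2.01% of the tests of all windows were listed: Sox7 in high against Low gates pooled and in ES, Notch4 in HE2 against HE1 and Notch1 in HP against HE2. Of the 184 sites 24 to 101 passed the filter, limma called 0 of them in any comparison, and 12 of 975 tests had an unadjusted p under 0.05 (0.965% of the tests of all sites). The sites tested had passed through the sets where they were listed. Of 28 other Notch pathway genes (receptors, ligands, glycosyltransferases, gamma-secretase subunits and nuclear partners), 27 or 28 were tested in each comparison, 0 were called in either direction, and 11 of 444 tests had an unadjusted p under 0.05, beside the 2.01% of all windows. For HB against ES the median log2 difference was 0.12 over the 10 loci, 0.13 over these genes and 0.01 over all windows.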

How the data were processed

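Reporter inserts were amplified from sorted cells and sequenced. According to the methods, the authors trimmed the reads with Trim Galore, aligned them to mm10 with Bowtie2, wrote each read pair as 1 interval with SAMtools and bedtools, removed duplicates and fragments found in HM-1 cells without a library, kept fragments of the plasmid libraries inside ATAC-seq peaks, and split them with HOMER into distal and promoter lists. The sources used here do not say whether each list was held against peaks of its own stage, nor whether the plasmid libraries were pooled before transfection. A filter of this kind by stage would bear on every difference between stages. The sorted lists were deposited as intervals without reads. The plasmid and control lists were deposited by the authors with a whole-number read count for each fragment and no normalization, and distinct fragments were used here.

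Plasmid and control starts were moved by 1 bp to match the sorted lists, after which coordinates count from 1. Fragments were assigned to gene windows and merged sites with Python 3.11.15 and NumPy 2.4.6. Fragments per 10000 plus 1 were taken to log2 and fitted with limma 3.58.1 in R 4.3.3 (lmFit, eBayes with trend), over all windows or sites that were listed in 4 or more of the 10 sets. Each comparison used 5 sets against 5, with Benjamini-Hochberg adjustment over all features tested and a threshold of 0.05. The script was tested on simulated data. Replicate numbers were taken to pair the sets where all 5 correlations of their deviations from the group means were above 0.1, which held in 2 of 16 comparisons, high with Low gates in ES (0.14 to 0.33) and positive HB with ES (0.14 to 0.29).

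The distal site listed in the most positive sets and the promoter site of each gene were named by rule, and other sites were chosen after their values were seen. The distal site that the rule gives for Notch1 is not reported here. The promoter sites named by rule lay over a start of the gene or within 1.5 kb of one. For Notch1 this was an internal start, and the site lies 12.9 kb downstream of the gene's own start. Sites kept the class of the authors' lists, so some distal sites lie at a start in this annotation. Notch1 distal site 18, for example, lies 0.236 kb from the Notch1 start. Intervals are 95% Wilson intervals, and the limit of a count of 0 is 3 fragments. Genes and lists were chosen with earlier results of these data known. The alternatives covered the constant added, the fragments counted, the window, the filter, the replicates, the block, weights, shared HE1 libraries, pooling, gate classes, small sets and bins of 500 bp.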

Additional observations from a re-analysis of the deposited data

Results flagged for a closer look

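A set far from the other sets of its group was looked for in 32 groups of 5 sets at the 10 loci by Dixon's test, and 3 groups had one. Chance flags about 1 in 20 where all sets have equal spread. The sets here differ widely in depth, so that rate does not hold for them. Sox18 had 18.2 fragments per 10000 in the positive set of replicate 4, stages pooled, and 4.29 to 4.66 in the other replicates. In that set 14 fragments lay at the promoter of Zfp512b and 11 at Sox18 distal site 4, and the latter were in the HE1 list that shares fragments with another. Hes1 had 0.433 in replicate 4 of the same sets and 2.06 to 2.70 in the others. Sox7 had 4.57 in the ES positive set of replicate 5, from 1 fragment, and 0 to 0.580 in the others. No locus had positive above Negative in every replicate of a stage and below it in every replicate of another. A replicate without a fragment of the locus in both lists, as at Hey1 in ES of replicates 4 and 5, bars such a pattern. So nothing is read from its absence.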

How the results depend on the processing

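Over 522 counts of called members under an alternative, 516 stayed at 0. The other 6 were all in positive HB against ES with voom weights: 1 locus (Sox7) with all replicates and 0 to 1 when a replicate was left out, and 1 site (Notch1 distal site 25, which passed the filter through HB alone), 0 when a replicate was left out. The fits with weights and the block or without a replicate, on distal or promoter fragments, and on Negative lists were added after seeing the data. The weighted fit called 41 windows higher and 311 lower in that comparison where the unweighted fit called 0, 201 and 5 in HE1 against HB, and 153 lower in HP against HE2. For sites it called 13 and 53, 29 and 5, and 14 lower, against 1, 0 and 0 unweighted. Other unweighted alternatives called 0 to 28 windows and 0 to 10 sites over the genome. The replicate block left 0 members called in the unweighted fit, where Sox7 in HB against ES had a limma adjusted p of 0.761.

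The log2 difference of Sox7 in HB against ES ran from 0.37 to 1.65 with a replicate left out (limma adjusted p 0.133 to 1.00). Within 50 kb the ES lists held 0 positive fragments. That window passed the filter through HB alone, so no test of it is given. The difference of Sox17 between positive and Negative sets, -0.37 in all fragments, was 0.11 in promoter fragments alone, and the cause was not tested. Without replicate 5 it was -0.05. The same difference of Sox7, 0.53, ran from 0.002 in promoter fragments to 0.94 with 0.25 added, and from 0.29 to 0.66 with a replicate left out. The difference of Sox7 between high and Low gates, 0.96, ran from 0.08 in promoter fragments to 1.70 with 0.25 added, and from 0.70 to 1.20 with a replicate left out. Depth limits replicates 3 to 5, where many sets held no fragment of a locus.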
